A study of Sus scrofa with 12 samples.

Results

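The genes described here are 71 porcine genes that the count table lists by an Ensembl identifier without a symbol and whose level was lower in the control libraries titled 4c than in those titled 2c. They were chosen by their control values, from 13866 genes without a symbol among 29329 genes in all. A gene was a member when its mean in con-2c was at least 5 CPM (each count scaled by the library's column total) and at least 1.7 times its mean in con-4c. Of the genes without a symbol, 952 reached 5 CPM in con-2c, and the members were 7.46% of these. By the same values 284 of 6164 genes with a symbol, 4.61%, would have been chosen. All 71 members passed the filter on low counts, after which 17995 genes were tested.

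The early embryo starts from RNA that the oocyte made and stored. This maternal RNA is cleared in steps during the first cleavages, in part by deadenylation, while the genome of the embryo begins to be transcribed. In pigs the main wave of this activation comes around the 4-cell stage, so a transcript that is lower at a later cleavage stage can be a stored one. A gene without a symbol is one that the annotation describes but does not name, and such genes include protein-coding genes without an assigned counterpart as well as non-coding ones.

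The libraries were made by SMART-seq, which primes polyadenylated RNA with oligo(dT) and amplifies the cDNA by PCR, from porcine embryos fertilised in vitro. There were 12 libraries in 4 groups of 3, namely con-2c and con-4c (treatment given as blank control) and si-2c and si-4c (treatment si-CCNB2, an injected siRNA that targets cyclin B2, a mitotic cyclin). The title and the tissue label disagreed on the stage in all 12 libraries, those titled 2c being labelled as 4-cell embryos and those titled 4c as 2-cell embryos, so the names used here stand for the titles alone. The labels and methods did not make clear whether control embryos had been injected. A library pooled several embryos according to the methods, and the methods speak of independent experiments in general without saying so of these libraries, so p-values measure the spread between these libraries, which may be technical.

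Library totals were 27785233 to 39510908 counts, without molecular identifiers. CCNB2, the targeted gene, was at 429 to 510 TMM-scaled CPM in the control libraries, 17.8 to 28.8 in si-2c and 40.3 to 46.8 in si-4c, so the treatment labels matched the target. TMM-scaled CPM divides each count by the library total times a scaling factor, and it is the unit of every level below unless another is given. All 10 oocyte and embryo markers, such as BTG4 and ZP4, passed the filter, and their summed level was 10131 to 10906 in con-4c against 19963 to 24953 in con-2c, and 10221 to 12079 in si-2c against 22929 to 25068 in si-4c. BTG4 gave most of this sum (con-2c mean 18571, con-4c mean 7682, si-2c mean 7897, si-4c mean 19671), and from si-2c to si-4c 2 of the 10 were called higher, against 1.47% of all genes tested, with a median difference of 0.29. By adjusted p alone 4 of them rose and BMP15 fell by 0.23. Of 12 cumulus and granulosa markers 9 were in the table, and VCAN gave nearly all of their summed level (con-2c 291 to 368, con-4c 175 to 186, si-2c 169 to 197, si-4c 291 to 300). The other 8 reached at most 1.98 (STAR) in any library, with HAS2, CYP11A1 and FOXL2 at most 0.132, 0.0663 and 0.0663, and the means of TNFAIP6 and PTX3 were higher in con-4c and si-2c than in con-2c and si-4c. Of 11 sperm and testis markers 4 were in the table, with sums of 35.1 to 59.0, most of it LDHC. The sums of all 3 lists were higher in the con-2c and si-4c libraries than in the con-4c and si-2c libraries, as the levels of most members were, and their part in the results was not tested.

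Over the 17924 tested genes that are not members, every si-4c library correlated more closely with the con-2c libraries (Pearson's r across genes on log2(CPM + 1), 0.991 to 0.993) than with the con-4c libraries (0.945 to 0.947). Every si-2c library correlated more closely with con-4c (0.983 to 0.985) than with con-2c (0.966 to 0.968). These are descriptions across genes, which are not independent replicates. A stage difference that runs the other way after si-CCNB2 and an exchange of the stage titles within 1 of the treatments cannot be told apart from these counts, and every direction below rests on the titles.

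The control levels chose the members and are given without a test. The con-2c mean was 1.72 to 4.01 times the con-4c mean by CPM over column totals, with a median of 1.9, and 24 members reached 2. On the TMM scale the same ratio was 2.07 to 4.77 with a median of 2.30. The con-4c libraries lay below all con-2c libraries in 70 members, against 20% of all genes tested, and the exception was ENSSSCG00000055578. The summed members took 8.31%, 8.81% and 7.65% of the counts of the 3 con-2c libraries and 4.10%, 4.40% and 4.32% of those of con-4c.

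In the si libraries, whose values did not enter the rule, the share was 4.72%, 5.004% and 4.27% for si-2c against 7.86%, 7.74% and 7.70% for si-4c. The mean share was 8.26% ± 0.579 for con-2c and 4.28% ± 0.155 for con-4c, and it was 4.66% ± 0.371 for si-2c and 7.77% ± 0.0814 for si-4c (SD, n = 3). The si-4c libraries thus lay above all si-2c libraries and within the range of con-2c. A single member, ENSSSCG00000000296, made up most of these sums with 5.73% ± 0.555, 2.93% ± 0.155, 2.89% ± 0.274 and 5.14% ± 0.0198 in the group order just given. Without it the 4 shares were 2.53% ± 0.111, 1.34% ± 0.0195, 1.78% ± 0.0991 and 2.62% ± 0.0687. The summed level of the members below 100 CPM in con-2c was 1512 ± 90.7 (con-2c) and 641 ± 9.08 (con-4c) in the controls, with 813 ± 37.4 (si-2c) and 1497 ± 40.1 (si-4c) after si-CCNB2.

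**Figure D1:**
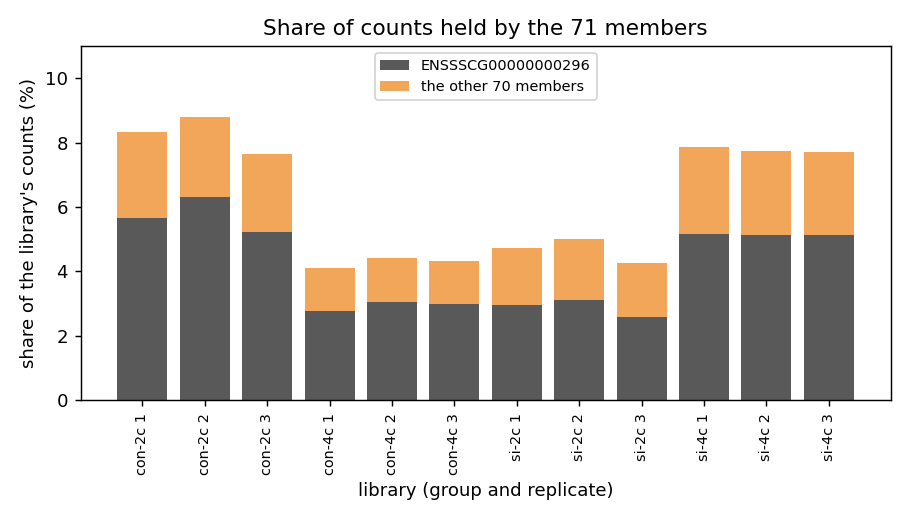
Share of each library's counts taken by the 71 members, in percent, stacked as ENSSSCG00000000296 (dark) and the other 70 members (light). Each bar is 1 library, and the bars of con-2c and si-4c stand above those of con-4c and si-2c.

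The comparison of si-4c with si-2c asks how the members differ between the title stages after CCNB2 depletion, and it holds no library that the rule used. The opposite direction of stage differences in the si libraries was already known when the members were chosen. That direction is therefore not independent support. The median log2 difference of the members (si-4c minus si-2c) was 0.84, a fold of 1.79, with quartiles of 0.63 and 1.05 and a range of -1.14 to 1.99. It was positive in 68 members, 95.8%, against 42.2% of all genes tested, whose median was -0.13. By edgeR's quasi-likelihood test with the adjusted p under 0.05 and a log2 difference of 1 or more in size, 21 members (29.6%) rose, against 1.47% of all genes tested, and 1 fell (1.41%), against 11.9%. By adjusted p alone 52 members (73.2%) rose, against 12.1% of all genes, and 1 fell, against 16.9%, which left 18 that passed in neither direction. The log2 differences of the 52 were 0.44 to 1.94, and 31 of them were under 1, so the fold threshold rather than the spread kept most uncalled members out.

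All si-4c libraries lay above all si-2c libraries in 57 members (80.3%), against 17% of all genes tested, and below them in 1, against 25.8%. In the same 57 all con-4c libraries lay below all con-2c libraries, a side of this joint pattern that the choice fixed. Among all genes tested 3602 had con-4c below con-2c without overlap. Of these, 2086 (11.6% of all genes tested) also had si-4c above si-2c without overlap, so the joint pattern is common among genes that fell in the controls. In the other 13 the libraries overlapped. By CPM over column totals, a scale chosen after the data were seen, the si-4c libraries lay above in 42 members, against 5.04% of all genes. The size of the difference depended on the scaling: with library totals in place of TMM factors only 3 members were called higher, against 50 of the 17995 genes, the median was 0.46, 63 of 71 were positive and the median of all genes moved from -0.13 to -0.51. Of the called members named below by level, p or symbol, ENSSSCG00000004151 (1.17) and ENSSSCG00000002653 (1.56) were also called higher with library totals. ENSSSCG00000000296, ENSSSCG00000004307, ENSSSCG00000009670, ENSSSCG00000002020, ENSSSCG00000004623, ENSSSCG00000005656, ENSSSCG00000005440 and ENSSSCG00000009500 then had differences of 0.63 to 0.97, short of the fold threshold, with an adjusted p that still passed. A change of scaling shifts all genes by nearly the same amount, and the members' median stood 0.97 above that of all genes under both.

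**Figure D2:**
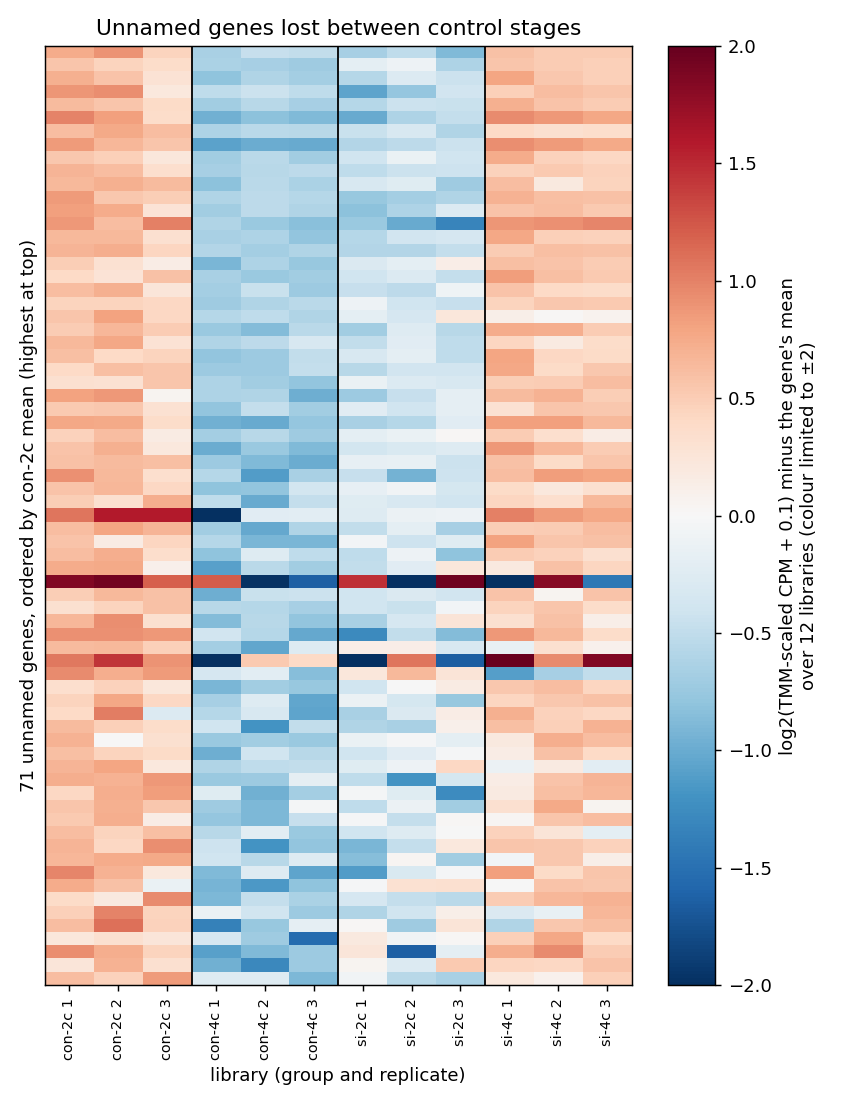
Level of each member in the 12 libraries, as log2(TMM-scaled CPM + 0.1) minus the member's mean and coloured up to 2 either way, with members in rows and libraries in columns by group. Most rows are high in con-2c and si-4c and low in con-4c and si-2c, and the control columns chose the rows.

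The most abundant member, ENSSSCG00000000296, had control libraries at 66320, 74128 and 54211 (con-2c) and 25204, 28832 and 28082 (con-4c), and its si libraries were at 24989, 27854 and 21457 (si-2c) and 59253, 56457 and 56234 (si-4c). Its lowest si-4c library stood above its highest si-2c library, and it was 2.31 times as high in si-4c (log2 difference 1.21, SE 0.11, edgeR adjusted p = 3.42e-07). ENSSSCG00000050380 went from 7954, 8483 and 5918 in si-2c to 13400, 12889 and 12645 in si-4c (con-2c 13279, 12399 and 11660, con-4c 5840, 5755 and 5559). It rose by 0.80 (SE 0.10, edgeR adjusted p = 1.75e-05), short of the fold threshold, although its si groups did not overlap.

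ENSSSCG00000004307 carries the symbol AKIRIN2 in the gene name table. AKIRIN2 is a nuclear protein known for its part in the import of proteasomes into the nucleus and in NF-kB-dependent gene expression. RefSeq places the protein-coding gene of that symbol on chromosome 1, from 56047188 to 56075342 in Sscrofa11.1. Its control libraries held 7672, 6949 and 5770 (con-2c) and 2707, 3085 and 2926 (con-4c), and its si libraries held 3166, 3887 and 3496 (si-2c) and 8094, 6865 and 6533 (si-4c). The si groups did not overlap, and the mean rose from 3516 ± 361 to 7164 ± 823 (n = 3, log2 difference 1.03, SE 0.11, edgeR adjusted p = 2.19e-06). That difference is close to the threshold, and it was 0.96 without si-2c replicate 1 and 0.93 without si-4c replicate 1, and 0.90 with a filter of at least 10 CPM on average.

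CLDN10, the symbol of ENSSSCG00000009500, encodes a claudin, a protein of tight junctions, and lies on chromosome 11 from 65027706 to 65145002 in the same RefSeq assembly. Its control libraries held 38.7, 44.5 and 43.2 (con-2c) and 17.6, 17.7 and 21.0 (con-4c), and its si libraries held 19.95, 22.6 and 22.5 (si-2c) and 50.5, 38.4 and 42.7 (si-4c). Every si-4c library was above every si-2c library (log2 difference 1.02, SE 0.12, edgeR adjusted p = 4.65e-06). It too was close to the threshold: leaving out con-2c replicate 3, si-2c replicate 1 or si-4c replicate 1 gave 0.99, 0.96 or 0.91, a filter of at least 10 CPM on average gave 0.90, and DESeq2 gave 0.998. These 2 were the members for which the gene name table gave a symbol, and neither symbol was carried by another identifier of the count table. The other 69 members are known here by identifier alone.

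Among the other members of highest level, ENSSSCG00000009670 went from 612, 739 and 969 in si-2c to 1763, 1938 and 1857 in si-4c (log2 difference 1.26, SE 0.16, edgeR adjusted p = 1.82e-05). ENSSSCG00000002020 went from 740, 816 and 807 in si-2c to 1798, 1623 and 1567 in si-4c, and ENSSSCG00000004151 from 273, 360 and 397 to 1069, 1007 and 942. Their log2 differences were 1.08 (SE 0.08) and 1.55 (SE 0.14), and that of ENSSSCG00000002020 was 0.96 with the 10 CPM filter, short of the threshold. In all 3 the si groups stood apart by more than their spread. In the controls ENSSSCG00000009670 was at 2349, 2424 and 1466 (con-2c) against 894, 945 and 891 (con-4c). ENSSSCG00000002020 was at 1711, 1618 and 1438 (con-2c) against 676, 746 and 693 (con-4c). ENSSSCG00000004151 was at 1103, 976 and 714 (con-2c) against 284, 314 and 298 (con-4c). ENSSSCG00000007749 moved least of the most abundant members together with ENSSSCG00000050380, from 391, 427 and 348 in si-2c to 702, 660 and 675 in si-4c, a rise of 0.80 (SE 0.08) that passed by adjusted p (edgeR, 9.71e-07) and not by fold.

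The smallest p among members called higher was that of ENSSSCG00000004623. Its control libraries held 659, 579 and 535 (con-2c) and 174, 183 and 180 (con-4c), and its si libraries held 244, 254 and 272 (si-2c) and 694, 659 and 619 (si-4c). Its si-4c mean was 2.56 times its si-2c mean (log2 difference 1.36, SE 0.08, edgeR adjusted p = 2.96e-09). ENSSSCG00000002653 had the largest change among called members, from 36.9, 30.9 and 24.8 in si-2c to 114, 117 and 123 in si-4c, a fold of 3.82 (log2 difference 1.94, SE 0.13, edgeR adjusted p = 7.86e-09). It was at 113, 94.9 and 124 (con-2c) against 40.7, 37.1 and 34.8 (con-4c). ENSSSCG00000005656 (113, 119 and 126 in si-2c, 308, 290 and 287 in si-4c) rose 2.47-fold, and ENSSSCG00000005440 (43.1, 43.0 and 46.5 in si-2c, 91.9, 98.4 and 97.1 in si-4c) by 1.12 on the log2 scale (SE 0.09), or 0.99 with the 10 CPM filter. In these members the si-4c values lay within the con-2c range of 268 to 344 for ENSSSCG00000005656 and of 86.7 to 107 for ENSSSCG00000005440.

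**Figure D3:**
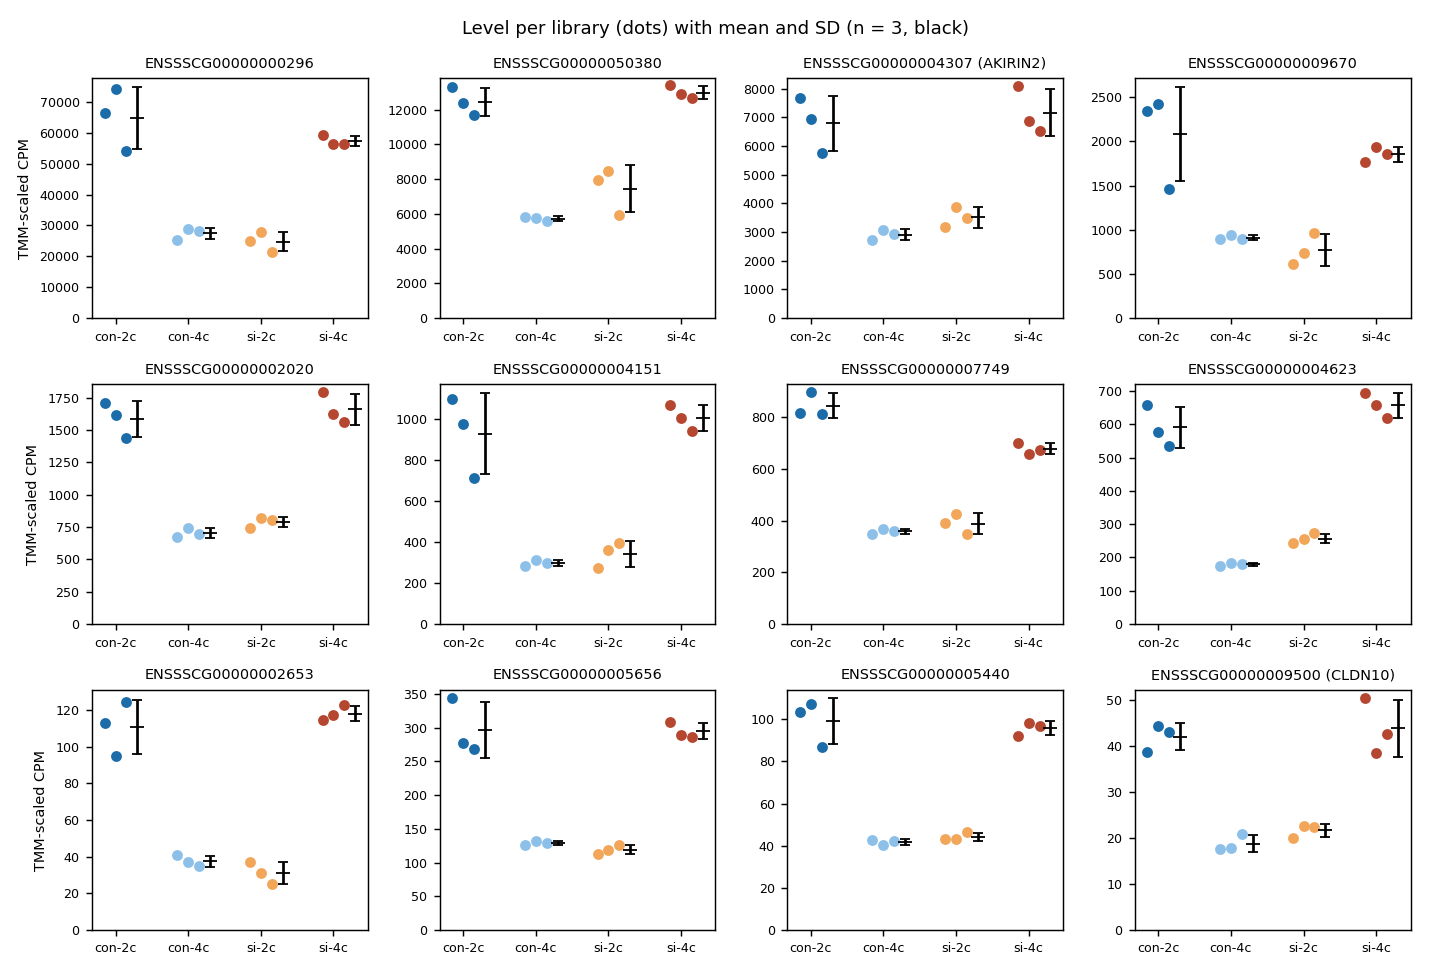
Levels of members named by level, p or symbol, in TMM-scaled CPM on linear axes from 0, by group. Points are libraries and black marks are means ± SD (n = 3), and in each panel the si-4c points stand above the si-2c points.

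Both the share of members that passed and their median difference were higher at higher levels, in bands of the con-2c mean, which the choice also used. Genes with a symbol chosen by the same values showed the same order, as given below, so it is not particular to the members. Over all genes tested, at any level, 1.47% were called higher and 12.1% rose by adjusted p alone. Of 41 members at 5 to 20 CPM in con-2c, 6 (14.6%) were called higher and 23 (56.1%) rose by adjusted p alone, with a median difference of 0.75. Of 17 members at 20 to 100 CPM, 7 (41.2%) and 16 (94.1%) did, with a median of 0.88. Of 13 members at 100 CPM or more, 8 (61.5%) and 13 (100%) did, with a median of 1.08. The median coefficient of variation between si-2c libraries was 21.5%, 11.2% and 11.2% in these bands, and between si-4c libraries 15.004%, 7.67% and 4.73%. Levels are per library and not per transcript length, so an order of genes by level is an order of counts alone.

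The 284 genes with a symbol that met the same values gave a median difference of 0.93, with 283 positive, 119 (41.9%) called higher and 258 (90.8%) higher by adjusted p alone. Within the bands their medians were 0.77, 0.97 and 1.03 and their called shares 27%, 43.1% and 55.8%. The 881 genes without a symbol that reached 5 CPM in con-2c but not the ratio had a median of 0.06, with 7 (0.795%) called higher and 22 (2.5%) lower. By adjusted p alone 199 (22.6%) of these were higher and 121 (13.7%) lower, and 28.8% were higher without overlap, shares of higher genes above the 12.1% and 17% of all genes tested. These sets were put side by side and not tested against each other, and no difference between them is claimed.

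Named genes of oocyte stores, mRNA clearance and genome activation were read in the same comparison, and no process is assigned to the members by this. The lists overlap and are not independent sets. Every oocyte and embryo marker given above is also in the maternal oocyte list, BTG4 is in the clearance list as well, and OTX2 is in both the maternal and the activation lists. Of 30 maternal oocyte genes tested from a list of 40, 7 rose, with a median of 0.32, and by adjusted p alone 13 rose and 1, the oocyte growth factor gene BMP15, fell (-0.23). Of the 30, 6 (RGS2, SRPX, OOEP, BTG4, OOSP2 and ZP4) met the values that chose the members. RGS2, a regulator of G-protein signalling, rose by 1.44 (SE 0.07, edgeR adjusted p = 1.94e-10), and OOEP, a protein of the subcortical maternal complex, by 1.22 (SE 0.08, edgeR adjusted p = 8.72e-09). Of 27 tested mRNA clearance genes 1 rose, namely BTG4, the adaptor that brings the CCR4-NOT deadenylase to maternal mRNA (1.32, SE 0.11, edgeR adjusted p = 9.37e-08). In that list 2 fell, the CCR4-NOT subunit CNOT9 (-2.12, SE 0.17) and the poly(A)-binding protein gene PABPC1 (-3.70, SE 0.37), and the list's median was 0.01. By adjusted p alone 3 of the 27 rose and 5 fell. Of 9 tested markers of genome activation 5 fell (KLF17, EIF1AX, DPPA2, KLF4 and MYC), with a median of -1.16; EIF1AX, a translation initiation factor gene, stood at -1.16 and DPPA2, a developmental pluripotency gene, at -1.14. By adjusted p alone 6 fell, among them POLR2A, the gene of the largest RNA polymerase II subunit (-0.68, edgeR adjusted p = 0.0132), and 1 rose, the homeobox gene OTX2 (0.61, SE 0.11, edgeR adjusted p = 0.000504). The calls of these lists stand against 1.47% higher and 11.9% lower over all genes tested, and those by adjusted p alone against 12.1% and 16.9%.

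**Figure D4:**
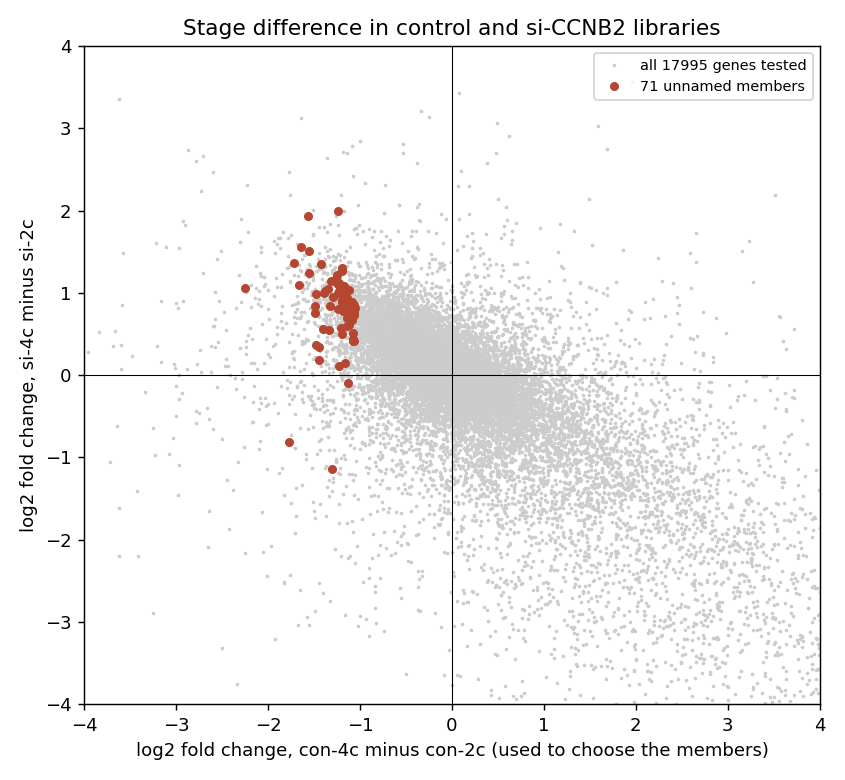
Log2 difference of con-4c minus con-2c (horizontal) against si-4c minus si-2c (vertical) for all genes tested (grey) and the 71 members (coloured), with 2032 genes beyond 4 on either axis not drawn. The members lie left of 0 because they were chosen there, and 68 of them lie above 0.

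The con and si differences share no library, and across the 71 members their correlation was weak (Pearson's r = -0.13, Spearman's rho = -0.37). These values describe genes within a range that the choice cut short.

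Set against the control groups, which chose the members, the si levels are given as a description. Si-2c was below con-2c in mean in all 71 members, with a median log2 difference of -0.94 (range -1.84 to -0.22, all genes 0.12). Si-4c was above con-4c in mean in 70, with a median of 1.19 (range -0.30 to 1.88, all genes -0.11). Between si-4c and con-2c the median was -0.06, and it was 0.31 between si-2c and con-4c, where 63 members were higher in si-2c. On the log2 scale the si-4c mean was nearer to con-2c than to con-4c in 68 members, and the si-2c mean was nearer to con-4c in 60. These contrasts share their control and si libraries with each other.

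The single member called lower in si-4c was ENSSSCG00000036186. Its control libraries held 13.4, 11.5 and 12.5 (con-2c) and 5.43, 5.90 and 3.77 (con-4c), and its si libraries held 8.06, 10.8 and 8.22 (si-2c) and 3.15, 4.31 and 4.84 (si-4c). It thus fell with the title stage in both treatments, and its si groups did not overlap (log2 difference -1.14, SE 0.21, edgeR adjusted p = 0.000477). The call rests on the fold threshold, since the difference was -0.99 without si-2c replicate 2 and -0.98 without si-4c replicate 1.

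The other members with the lowest differences did not pass. ENSSSCG00000050757 was at 4.90, 5.44 and 7.81 (si-2c) against 5.34, 6.62 and 5.02 (si-4c) (log2 difference -0.10, SE 0.21, edgeR adjusted p = 0.80). ENSSSCG00000012152 was at 9.62, 9.59 and 7.04 (si-2c) against 7.92, 11.02 and 9.38 (si-4c) (0.11, SE 0.20). The si groups of both overlapped, while con-2c held 9.42, 10.1 and 6.73 for ENSSSCG00000050757 and 13.7, 13.8 and 12.3 for ENSSSCG00000012152. Of the 18 members that passed in neither direction 17 were below 20 CPM in con-2c, and the remaining one was ENSSSCG00000061482, at 32.0, 28.9 and 43.0 (si-2c) against 39.4, 37.0 and 38.5 (si-4c) (0.14, SE 0.13). It was singled out after its values were seen.

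ENSSSCG00000055578, also among the lowest differences, was at 12.4, 1.02 and 17.4 (si-2c) against 0.12, 15.9 and 1.58 (si-4c), with controls at 16.4, 17.3 and 10.4 (con-2c) against 10.5, 1.06 and 1.37 (con-4c). Its libraries within each group but con-2c held both low and high values, and its difference of -0.81 (SE 1.02, edgeR adjusted p = 0.62) did not pass. Without si-4c replicate 2 it was -3.59 and was called lower, while without si-2c replicate 1 it was -0.66 and was not called. ENSSSCG00000060156, singled out after its values were seen, had control libraries at 12.3, 15.8 and 10.9 (con-2c) and 0.395, 8.42 and 7.67 (con-4c), and its si libraries were at 0.0974, 12.3 and 1.78 (si-2c) and 23.2, 11.3 and 21.1 (si-4c). Its difference, 1.99 (SE 0.87, edgeR adjusted p = 0.10), was the highest of all members and did not pass, but it was called higher without si-2c replicate 2 (4.26), with the replicate number as a block (2.80) and without the filter on low counts (2.00).

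Outside con-2c the pair was split, so that a library low in one gene was the higher in the other, except that both were high in si-4c replicate 2. The pair was noticed by eye, and its sum was formed after that. The summed level was 27.7 ± 6.0 (con-2c) and 9.79 ± 0.952 (con-4c) in the controls, with 14.99 ± 3.65 (si-2c) and 24.4 ± 2.39 (si-4c) after si-CCNB2 (SD, n = 3). In the fit with the pair summed, the sum rose by 0.70 from si-2c to si-4c (SE 0.17, edgeR adjusted p = 0.00571). The standard deviation of log2 level within groups was 2.09 and 1.92 for these genes alone, 1.67 for ENSSSCG00000053447, which had a con-4c library at 0 counts (0, 5.27 and 5.30), and at most 0.54 for any other member. ENSSSCG00000053447, also singled out after its values were seen, was at 5.16, 5.65 and 5.73 (si-2c) against 12.5, 11.2 and 10.6 (si-4c), groups that did not overlap. Its difference of 1.05 (SE 0.57, edgeR adjusted p = 0.192) did not pass, but it was called higher without con-4c replicate 1, with the si libraries alone in the fit and without the filter on low counts (1.05, 1.05 and 1.06). Whether the counting divided reads between ENSSSCG00000055578 and ENSSSCG00000060156 was not tested.

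**Figure D5:**
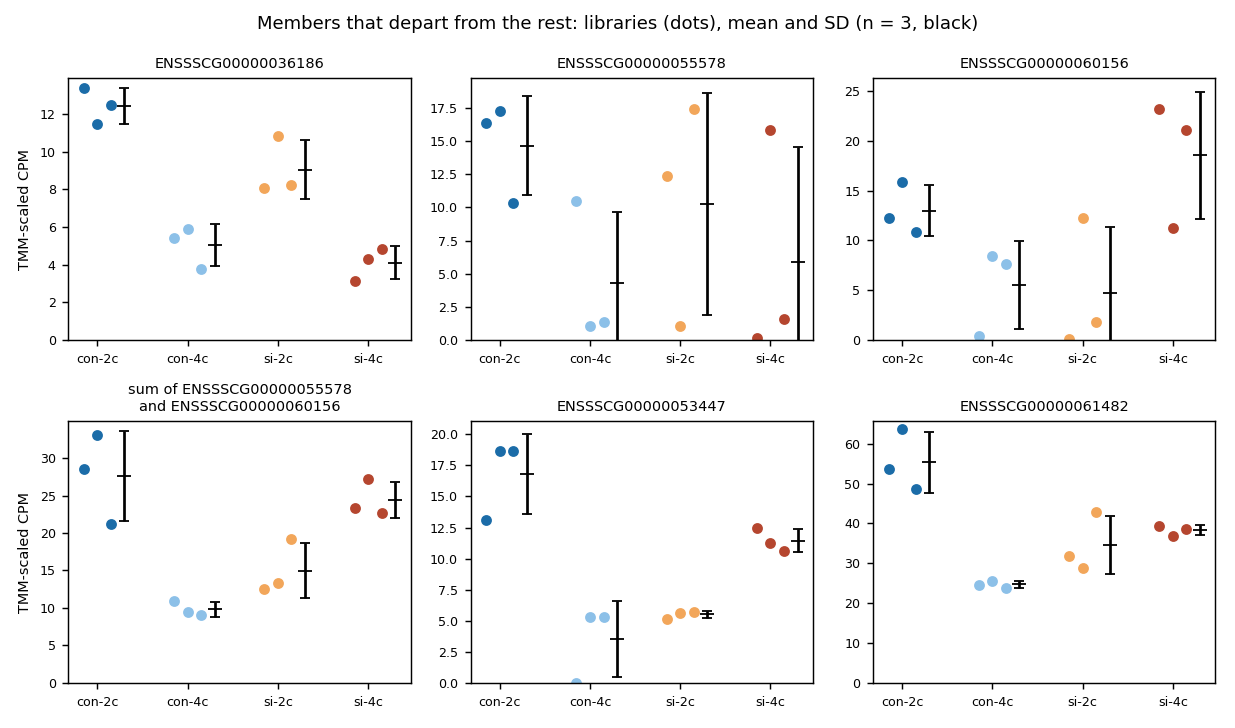
Levels in TMM-scaled CPM, on axes that start at 0, of members with a si difference against the majority, a small difference or a wide spread within groups, and of the summed pair. ENSSSCG00000053447 is drawn for its spread and had the direction of the majority. Points are libraries and bars are means ± SD (n = 3), whose lower ends are cut at 0, and the libraries of ENSSSCG00000055578 and ENSSSCG00000060156 spread widely within groups.

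The thresholds of the choice cut through a continuous range, and members near them are given with no test, in CPM over column totals. Just inside the ratio were ENSSSCG00000008383 (51.1 in con-2c against 29.8 in con-4c) and ENSSSCG00000015217 (483 against 281), both at 1.72, with ENSSSCG00000055415 at the same ratio. Just outside was ENSSSCG00000010077 (5.67 against 3.35, a ratio of 1.69), followed by ENSSSCG00000054171 and ENSSSCG00000050691 at 1.68. Just inside the level were ENSSSCG00000031365 at 5.04, ENSSSCG00000001057 at 5.05 and ENSSSCG00000061649 at 5.08, and just outside it, with the ratio met, were ENSSSCG00000061287 at 4.89, ENSSSCG00000042411 at 4.72 and ENSSSCG00000044155 at 4.64.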

How the data were processed

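The authors deposited a table of unnormalized whole-number counts for each gene. The submitters' processing notes name cutadapt 1.9, HISAT2 2.2.1, StringTie 2.1.6, DESeq2 and edgeR and the build Sscrofa11.1, while the release of the annotation, strand handling and multi-mapping were not given in the sources used here. Values of near-identical, overlapping or antisense genes are therefore uncertain.

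Groups were taken from the titles. Counts were fitted in R 4.3.3 with edgeR 4.0.16: filterByExpr, TMM factors (0.852 to 1.21), 1 quasi-likelihood model with 4 group means over 12 libraries, and Benjamini-Hochberg adjustment over the 17995 genes tested. The TMM factors differed by group, at 0.852 to 0.962 in con-2c and 0.871 to 0.915 in si-4c against 1.06 to 1.09 in con-4c and 1.12 to 1.21 in si-2c. Levels are relative within a library, so a gene that rose or fell did so against the other genes. The common dispersion was 0.0745 (biological coefficient of variation 27.3%). Calls followed the thresholds of the study, an adjusted p under 0.05 and a log2 difference of 1 or more in size. Standard errors were the log2 fold change over the square root of F. The script was tested on simulated data. DESeq2 1.42.0 was an alternative, as were other scalings, filters, member rules, a replicate block and leaving out each library. Replicates were no copies of each other, with chi-square values of 7.48 to 44.0 per degree of freedom.

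Members and gene lists were chosen with earlier results of these data known, including the opposite direction of stage differences in the si libraries, so that direction is not independent support. Members were named by rule: the 8 of highest con-2c mean, the 6 of smallest p called in each direction, the 4 lowest differences, those with a symbol in the name table, and 3 on each side of each threshold. A further 3 were singled out after their values were seen. Of the members 2 matched the gene name table. No sequences were used here.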

Additional observations from a re-analysis of the deposited data

Results flagged for a closer look

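In 57 of the 71 members all con-4c libraries were below all con-2c libraries while all si-4c libraries were above all si-2c libraries, a joint pattern held by 11.6% of all genes tested. The 2 treatments thus moved in opposite directions between the title stages. The control direction was set by the choice of members. Of the 3602 genes tested with con-4c below con-2c without overlap, 2086 held the joint pattern, so it is common among such genes. The difference between the treatments was not tested.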

How the results depend on the processing

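The test as reported called 21 members higher and 1 lower in si-4c against si-2c, with a median log2 difference of 0.84, against 264 higher of 17995 genes. With library totals in place of TMM factors 3 were called higher (50 of all genes) and the median was 0.46. A filter of at least 10 CPM on average left 41 of the 71 members in the test, of which 10 were called higher (102 of 6119 genes) and 0 lower (ENSSSCG00000036186 was not tested), with a median of 0.77, and the calls of ENSSSCG00000004307 (0.90), ENSSSCG00000009500 (0.90), ENSSSCG00000002020 (0.96) and ENSSSCG00000005440 (0.99) ended on the fold threshold. By adjusted p alone 52 were higher (2169 of all genes). Choosing members by TMM-scaled CPM gave 167 members, of which 26 were called higher, with a median of 0.64, and a ratio of 2 gave 24 members, 10 called higher and a median of 0.99. DESeq2 called 20 higher and 1 lower (median 0.82, 247 genes higher in all), and no filter 25 and 1 (271 of 29329 genes higher). Leaving out 1 library at a time, and choosing members again where it was a control, gave 71 to 80 members, 18 to 27 higher (230 to 330 of all genes), 0 to 2 lower and medians of 0.79 to 0.88. The count lower was 0 without si-2c replicate 2 or si-4c replicate 1.

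Replicate numbers did not pair the samples: the deviations of same-numbered libraries correlated at -0.18 to 0.06, and 0 of the 6 si libraries correlated best with their own number. A fit with the replicate number as a block called 22 higher and 1 lower, against 257 and 1830 of the 17995 genes.

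With library totals 63 of the 71 members were positive, against 68 with TMM factors. Alternatives for single members were computed for those named by level, p, symbol or lowest difference and for the 3 singled out, not for those named at the thresholds. Among the members so computed, the sign turned for ENSSSCG00000012152 (-0.26 with library totals, -0.024 without si-2c replicate 3 and -0.01 without si-4c replicate 2, in a range of -0.024 to 0.22 over the libraries left out), for ENSSSCG00000061482 (-0.24 with library totals) and for ENSSSCG00000050757 (0.13 without si-2c replicate 3, in a range of -0.23 to 0.13), none of which had passed the test. The cause was not tested. The spread between si-2c libraries was widest for members at 5 to 20 CPM (median coefficient of variation 21.5%), where the median difference was also smallest, and the effect of depth or of the number of libraries on the calls was not tested.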
